A study of Homo sapiens with 6 samples.

Results

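Oxidative phosphorylation is carried out by 5 protein complexes of the inner mitochondrial membrane. Complexes I and II take electrons from NADH and succinate, complex III passes them from ubiquinol to cytochrome c, and complex IV passes them to oxygen. Complexes I, III and IV pump protons as they do so, and complex V, the ATP synthase, makes ATP as the protons return. Most subunits are encoded in the nucleus and the rest in the mitochondrial genome. Hepatocytes are rich in mitochondria and depend on this pathway for gluconeogenesis and urea synthesis.

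The genes described here are the nuclear genes whose symbols name a subunit of complexes I to V (the NDUFA, NDUFB, NDUFC, NDUFS and NDUFV genes, SDHA to SDHD, the UQCR genes and CYC1, COX5 to COX8 genes, and the ATP5 genes). In the deposited table of 28265 genes, 87 rows matched and 1 of them, a pseudogene, was dropped. The remaining 86 genes comprised 36 of complex I, 4 of complex II, 10 of complex III, 16 of complex IV and 20 of complex V. NDUFA4 and NDUFA4L2 were placed with complex IV, where RefSeq's present symbols for them put them. The symbols also take in genes that are not structural subunits or are rare copies: ATP5IF1 encodes the inhibitor of the ATP synthase, UQCRHL and ATP5MGL are copies of UQCRH and ATP5MG, and ATP5MF-PTCD1 is a readthrough transcript.

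RNA was measured 48 h after lentiviral transduction in Huh7, a long-established line from a human hepatocellular carcinoma. LHX2 cells had received a vector that expresses LHX2, a LIM-homeodomain transcription factor, and CTRL cells had received a control vector. Each group held 3 libraries of polyadenylated RNA, and since no label states whether replicates were separate cultures, p-values measure only how far these libraries spread, in part perhaps for technical reasons. Expression of LHX2 from a vector limits what the comparison models, since the vector sets the level of the transcript, and the sources used here do not give its promoter.

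Total counts were 30029313, 30351710 and 35194438 in the LHX2 libraries and 32625405, 39653681 and 32981204 in the CTRL libraries. LHX2 itself had 2535, 2427 and 3126 counts in LHX2 libraries, against 1, 2 and 1 counts in CTRL libraries. The hepatocyte-lineage markers ALB, AFP, APOA1, TTR and HNF4A were all detected and together reached 34310 to 37920 CPM (a gene's counts as a share of the library's TMM-scaled total, on the usual per-million scale) in LHX2 libraries and 37280 to 38460 CPM in CTRL libraries. Of these 5, HNF4A and TTR fell (log2 fold changes of -0.26 and -0.17). The 3 fibroblast markers summed to 35.8 to 38.2 CPM in LHX2 libraries and 9.11 to 10.4 CPM in CTRL libraries, nearly all of it COL1A2, which rose, while COL1A1 and PDGFRB were under 1 CPM. Of 3 endothelial markers CDH5 and KDR had 0 counts in every library, and the sum was 2.75 to 3.22 CPM in LHX2 libraries and 3.75 to 4.28 CPM in CTRL libraries. Of 3 immune markers CD3E had 0 counts and PTPRC at most 3 counts in any library, and the sum, almost all CD68, was 16.0 to 17.2 CPM in LHX2 libraries and 7.76 to 9.40 CPM in CTRL libraries. The part of other cell types in the results was not tested.

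Summed by complex, subunit transcripts of all 5 complexes were lower in LHX2 cells by a small amount, from 7.11% in complex I to 14.1% in complex III. Of the 86 genes, 80 had enough counts to be tested, and 40 of these fell in LHX2 cells, 0 rose and 40 did not pass the test (edgeR quasi-likelihood test, Benjamini-Hochberg adjusted p under 0.05 over all 14533 genes tested). Among all genes tested, 15.8% fell and 16.6% rose, 32.5% in either direction. At an unadjusted p under 0.05, 44 of the 80 were lower and 0 higher in LHX2 cells. Of all 14533 genes tested, 3031 were lower and 3133 higher at that threshold. With DESeq2 and with limma-voom the number of subunit genes that rose was also 0. The count depended on the libraries: without CTRL replicate 2, 23 subunit genes fell, and 11.5% of all genes tested.

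The median log2 fold change of the 80 subunit genes was -0.14, or 9.52% lower in LHX2 cells, against 0.01 over all genes tested. Above 100 CPM the median was -0.15 for the subunit genes and -0.05 for all genes. In single libraries, the median of the subunit genes relative to the CTRL mean was -0.12, -0.14 and -0.17 on the log2 scale in LHX2 replicates 1 to 3, against -0.01, 0.02 and -0.01 in CTRL replicates 1 to 3. Thus every LHX2 library lay below every CTRL library by this measure. Of the 80 genes, 70 had a log2 fold change below 0 and 10 above it. For 39 genes every LHX2 library was below every CTRL library and for 0 every LHX2 library was above, while 22.1% and 22.9% of all genes tested had groups that did not overlap in those directions. Of the 40 genes that fell, 35 had groups that did not overlap, and NDUFV1, UQCR11, COX5A, ATP5F1B and ATP5PO overlapped.

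**Figure D1:**
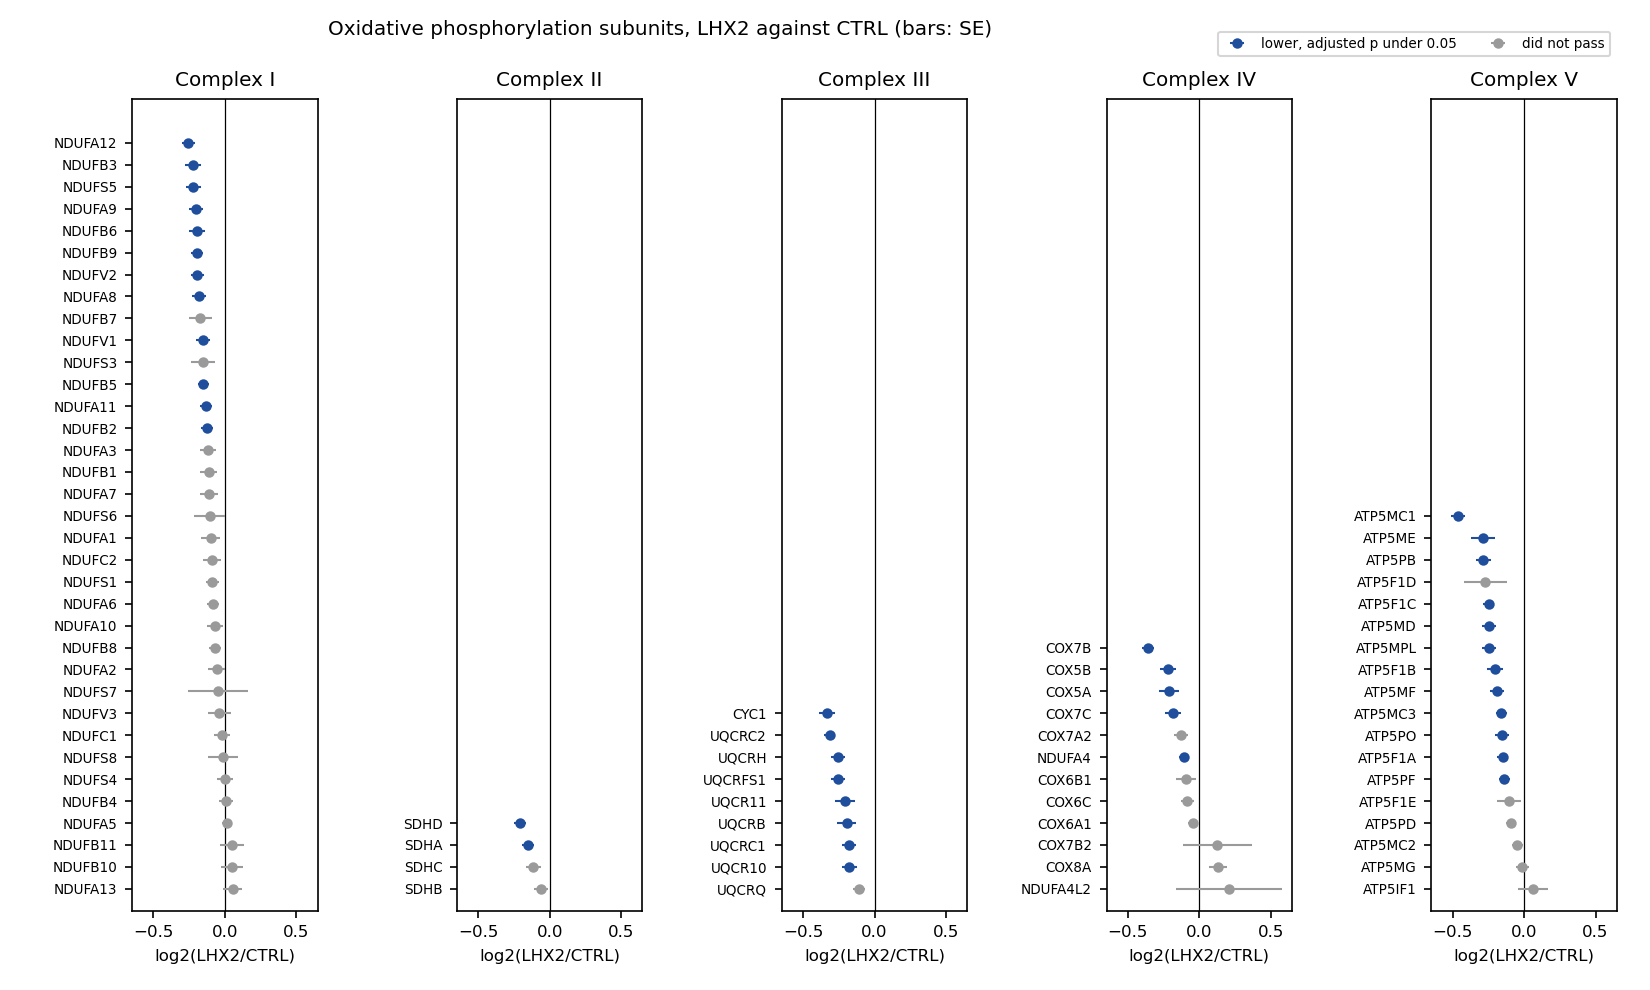
Log2 fold change of LHX2 over CTRL (x axis) with its standard error for 78 subunit genes (rows), by complex; blue points passed an adjusted p under 0.05 and grey points did not. UQCRHL, at -0.99, and 1 gene of complex I are not drawn. Points lie mostly left of 0 in every complex, ATP5MC1 of complex V is farthest left, and 0 genes passed to the right.

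The falls were modest in size, with log2 fold changes of -0.11 to -0.46 among the 40 genes that fell. Summed over all subunit genes, the transcripts made up 11560, 11400 and 11060 CPM in LHX2 libraries, against 12550, 12760 and 12430 CPM in CTRL libraries. The mean was 11340 ± 255 CPM in LHX2 libraries and 12580 ± 167 CPM in CTRL libraries (SD, n = 3 each), 9.86% lower in LHX2, and the libraries of the groups did not overlap. CPM values are shares of a library, so a lower value cannot be told apart from more RNA of other genes. In whole-culture RNA, fewer cells of a type and less RNA per cell likewise cannot be told apart.

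**Figure D2:**
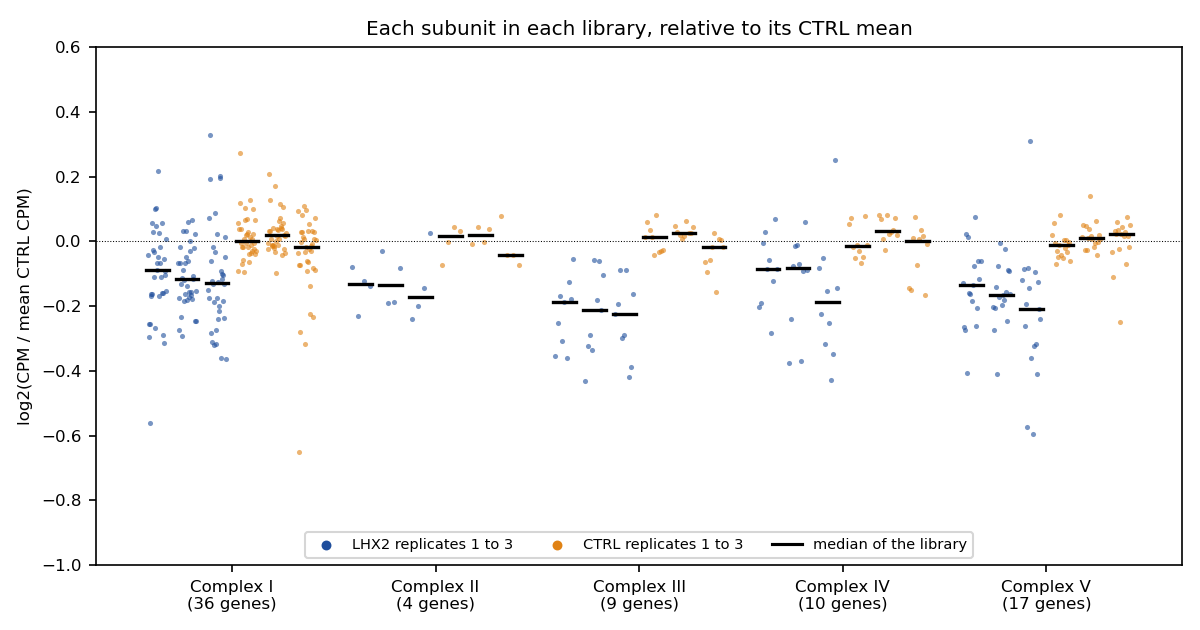
Each of 76 subunit genes that averaged 10 CPM or more in both groups, in each of the 6 libraries, as log2 of its CPM over its mean CTRL CPM (y axis), by complex; short black lines are library medians. The medians of the LHX2 libraries lie below those of the CTRL libraries in all 5 complexes, while single genes of the groups overlap.

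Genes with many counts fell more often, and the subunit genes have many counts, with a median of 108 CPM against 20.7 CPM over all genes tested. Among all genes above 100 CPM, 32.9% fell, and among the subunit genes above 100 CPM, 28 of 43 fell. Between 30 and 100 CPM, 22.2% of all genes and 12 of 30 subunit genes fell. The subunit transcripts are also short, with a median length of 1256 bases in the longest annotated transcript against 3238 bases over the genes tested. Among all genes with transcripts under 1 kb, the median log2 fold change was -0.05 and 15.9% fell, and among the subunit genes of that length 13 of 32 fell. Over 4 kb, 13.8% of all genes and 5 of 10 subunit genes fell. With a trend of the counts with transcript length and GC content removed from each library, 33 subunit genes fell, 30 of them among the 40, and COX8A rose. In that fit 19.9% of all genes tested fell and 15.4% rose.

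**Figure D3:**
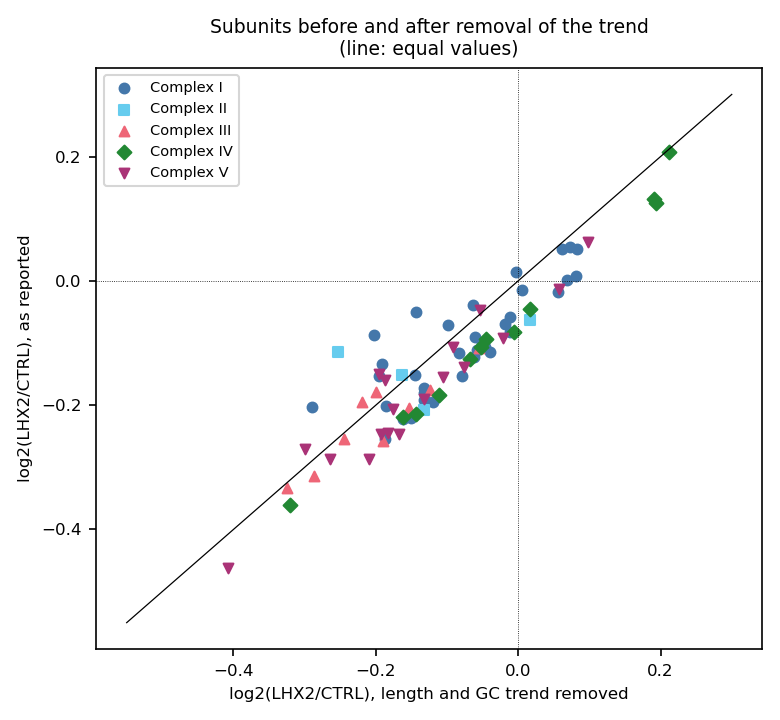
Log2 fold change of LHX2 over CTRL as reported (y axis) against the value with the length and GC trend removed from each library (x axis) for 79 subunit genes, with a line of equal values and UQCRHL not drawn. Points follow the line, ATP5MC1 stays the lowest, and SDHC moved farthest to the lower side.

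The promoters of 6 of these genes are printed here. For each of the 5 complexes the gene chosen had the smallest adjusted p among those that fell and had a match to a searched motif. ATP5MC1, the gene with the largest fall, was added. A motif match was thus part of the choice, and these promoters are not typical of their complexes. The promoters of NDUFA12, UQCRC2 and COX7B, which had the smallest adjusted p of complexes I, III and IV, had no match. The sequences are RefSeq's (GRCh38.p14), 5′ to 3′ on the gene's strand, with 250 bases before and 50 after the annotated start. Capitals mark matches on either strand to motifs of regulators known for mitochondrial genes: NRF1 (its full palindrome, the capitals of ATP5F1C), YY1 (AAGATGGCG), the GABPA/ETS core (CCGGAAGT) and ESRRA (TCAAGGTCA), and to TAATTA, a core bound by LIM-homeodomain factors. NDUFA9 carried the YY1 motif, SDHD the NRF1, GABPA/ETS and ESRRA motifs, UQCRH the GABPA/ETS motif, COX5B the GABPA/ETS motif at 2 places, ATP5F1C the NRF1 motif and ATP5MC1 none of the 5.
NDUFA9, chr12:4648864-4649163, plus strand: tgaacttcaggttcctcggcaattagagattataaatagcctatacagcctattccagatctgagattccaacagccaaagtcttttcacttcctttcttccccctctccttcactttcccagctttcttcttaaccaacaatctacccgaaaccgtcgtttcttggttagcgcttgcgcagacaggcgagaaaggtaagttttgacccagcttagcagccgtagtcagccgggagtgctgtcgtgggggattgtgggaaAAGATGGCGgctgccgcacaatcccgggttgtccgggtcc
SDHD, chr11:112086623-112086922, plus strand: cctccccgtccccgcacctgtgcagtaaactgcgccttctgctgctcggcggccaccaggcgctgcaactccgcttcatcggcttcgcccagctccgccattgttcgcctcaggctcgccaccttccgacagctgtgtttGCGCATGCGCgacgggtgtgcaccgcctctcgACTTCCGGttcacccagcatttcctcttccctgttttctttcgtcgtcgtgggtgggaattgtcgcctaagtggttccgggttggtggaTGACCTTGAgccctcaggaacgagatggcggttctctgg
UQCRH, chr1:46303448-46303747, plus strand: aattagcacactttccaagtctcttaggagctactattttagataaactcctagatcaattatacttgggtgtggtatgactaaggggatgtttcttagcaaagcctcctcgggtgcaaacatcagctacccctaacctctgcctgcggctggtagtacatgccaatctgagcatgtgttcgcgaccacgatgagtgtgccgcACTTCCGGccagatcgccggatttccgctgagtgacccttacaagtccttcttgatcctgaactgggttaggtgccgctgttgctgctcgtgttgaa
COX5B, chr2:97645812-97646111, plus strand: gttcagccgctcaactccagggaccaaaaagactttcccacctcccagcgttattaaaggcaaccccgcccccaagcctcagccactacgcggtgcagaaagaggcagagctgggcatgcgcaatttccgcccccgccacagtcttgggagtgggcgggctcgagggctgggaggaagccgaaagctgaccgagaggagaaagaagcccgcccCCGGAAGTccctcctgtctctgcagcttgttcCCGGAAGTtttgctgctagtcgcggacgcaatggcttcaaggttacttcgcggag
ATP5F1C, chr10:7787927-7788226, plus strand: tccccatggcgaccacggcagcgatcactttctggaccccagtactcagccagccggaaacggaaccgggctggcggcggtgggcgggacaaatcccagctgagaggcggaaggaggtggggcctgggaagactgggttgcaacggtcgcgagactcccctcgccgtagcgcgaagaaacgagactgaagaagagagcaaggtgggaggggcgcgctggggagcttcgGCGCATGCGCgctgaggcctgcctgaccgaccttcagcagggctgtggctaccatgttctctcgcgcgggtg
ATP5MC1, chr17:48892537-48892836, plus strand: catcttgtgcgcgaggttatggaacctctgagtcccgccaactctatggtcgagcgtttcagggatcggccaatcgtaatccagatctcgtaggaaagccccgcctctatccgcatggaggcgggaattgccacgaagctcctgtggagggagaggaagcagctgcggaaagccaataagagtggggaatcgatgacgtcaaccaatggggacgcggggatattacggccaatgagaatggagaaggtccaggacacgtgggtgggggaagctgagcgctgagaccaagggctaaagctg

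In all, 82 promoters of 69 subunit genes were in the RefSeq table, 33 promoters belonging to 31 genes that fell and 46 to 35 genes that did not pass. The YY1 motif was in 10 of the 82 promoters, 12.2%, against 1.75% of all 35116 promoters of the table. Among these 10, the overlapping windows of ATP5PF hold the same site. The GABPA/ETS motif was in 12, or 14.6%, against 4.14%, and the NRF1 motif in 4, or 4.88%, against 1.24%. The ESRRA motif was in 1, or 1.22%, against 0.353%. TAATTA was in 0 of the 82 and in 4.84% of all promoters, which says only that these letters are not in these windows. Among promoters of genes that fell, the GABPA/ETS motif was in 7 of 33, the YY1 motif in 4 and the NRF1 motif in 3. The 4 again count both windows of ATP5PF, beside NDUFA9 and UQCRC1. Among promoters of genes that did not pass, the counts were 5, 6 and 1 of 46. A match to letters is a description of the sequence and not a site of binding.

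In complex I, the NADH dehydrogenase, 13 of 36 genes fell and 0 rose, with a median log2 fold change of -0.11. The summed transcripts were 3671, 3601 and 3497 CPM in LHX2 libraries, against 3867, 3913 and 3813 CPM in CTRL libraries, 7.11% lower in LHX2 and without overlap. Of the 7 core subunits, which carry the redox chemistry of the matrix arm, 3 fell, NDUFV1 and NDUFV2 among them, though NDUFV1 lost the call in 6 of the 15 alternatives, including without CTRL replicate 1, CTRL replicate 2, LHX2 replicate 1 or LHX2 replicate 2. Of the accessory subunits, 2 of 9 in the matrix arm and 8 of 20 in the membrane arm fell. Among all genes tested 15.8% fell, with 22.2% of those between 30 and 100 CPM and 32.9% of those above 100 CPM. The count in the matrix arm lies within these shares, and that of the whole complex, 36.1%, is near the highest. Differences between these counts, and between complexes, were not tested.

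NDUFV2, a core subunit with an iron-sulphur cluster near the NADH site, had 165, 169 and 152 CPM in LHX2 libraries, against 184, 186 and 185 CPM in CTRL libraries (log2 fold change -0.19 ± 0.04 SE, edgeR adjusted p = 0.0029). It was lower in every LHX2 library than in any CTRL library. NDUFS1, the largest core subunit, had 283, 278 and 263 CPM in LHX2 libraries, against 274, 290.3 and 311 CPM in CTRL libraries, and did not pass (-0.09, edgeR adjusted p = 0.19); with the length and GC trend removed it fell (-0.20, adjusted p = 0.0024).

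NDUFA12, an accessory subunit of the matrix arm, gave the smallest adjusted p of the complex. It had 75.3, 68.8 and 67.9 CPM in LHX2 libraries, against 83.3, 83.6 and 86.0 CPM in CTRL libraries (-0.26 ± 0.05, edgeR adjusted p = 0.00065). NDUFA9, another matrix arm accessory subunit, whose promoter with the YY1 motif is printed above, had 105, 99.4 and 90.6 CPM in LHX2 libraries, against 114, 112 and 114 CPM in CTRL libraries (-0.20, adjusted p = 0.005). Neither gene's groups overlapped. The membrane arm subunits NDUFB9, NDUFS5 and NDUFB3 had log2 fold changes of -0.19, -0.22 and -0.22 (adjusted p = 0.0033, 0.0043 and 0.0044), with groups that did not overlap. NDUFS5 had 230.2, 230.0 and 199 CPM in LHX2 libraries, against 250.4, 260.1 and 257 CPM in CTRL libraries.

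Of the membrane arm subunits that did not pass, NDUFB4 had 206, 207 and 184 CPM in LHX2 libraries, against 194, 203 and 197 CPM in CTRL libraries (0.01, adjusted p = 0.92), and its sign turned when LHX2 replicate 1 (-0.02), LHX2 replicate 2 (-0.02) or CTRL replicate 1 (-0.007) was left out. NDUFB8 and NDUFA1 had log2 fold changes of -0.07 and -0.10 (edgeR adjusted p = 0.21 and 0.28), and NDUFA1 fell without LHX2 replicate 1 (-0.18, adjusted p = 0.041). NDUFA13 had the highest log2 fold change of complex I, 0.06, and rose (0.14, adjusted p = 0.041) once LHX2 replicate 3 was left out.

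Complex II, succinate dehydrogenase, also belongs to the tricarboxylic acid cycle and has nuclear subunits alone. Its summed transcripts were 533, 547 and 511 CPM in LHX2 libraries, against 567, 582 and 587 CPM in CTRL libraries, 8.33% lower in LHX2. SDHD, a membrane anchor, had 81.0, 83.3 and 82.8 CPM in LHX2 libraries, against 94.9, 97.9 and 92.3 CPM in CTRL libraries, and fell (-0.21 ± 0.04, edgeR adjusted p = 0.0011). SDHA, the flavoprotein that oxidises succinate, had 63.0, 60.2 and 62.0 CPM in LHX2 libraries, against 70.8, 68.5 and 66.5 CPM in CTRL libraries, and fell (-0.15, adjusted p = 0.014). The groups did not overlap for either gene, though SDHA lost the call without CTRL replicate 1 or 2, which left 1 gene of the complex that fell.

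SDHB, the iron-sulphur subunit, had 80.8, 84.0 and 90.6 CPM in LHX2 libraries, against 91.0, 91.4 and 84.6 CPM in CTRL libraries, and its groups overlapped (-0.06, edgeR adjusted p = 0.36). SDHC, the other anchor, had 309, 319 and 276 CPM in LHX2 libraries, against 309.9, 324 and 344 CPM in CTRL libraries (-0.11, adjusted p = 0.12). With the length and GC trend removed, the log2 fold change of SDHC was -0.25 (adjusted p = 0.00031) and that of SDHB was 0.02.

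In complex III, ubiquinol-cytochrome c reductase, 8 of 10 genes fell, against 15.8% of all genes tested. The median log2 fold change was -0.23, the lowest of the 5 complexes. The summed transcripts were 1085, 1083 and 1025 CPM in LHX2 libraries, against 1237, 1262 and 1217 CPM in CTRL libraries, 14.1% lower in LHX2 and without overlap. The number that fell was 5 without CTRL replicate 1 and 4 without CTRL replicate 2.

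UQCRC2, a core protein of the matrix side, had 98.7, 97.0 and 99.4 CPM in LHX2 libraries, against 123, 123 and 121 CPM in CTRL libraries (-0.31 ± 0.04, edgeR adjusted p = 1.5e-05). The spread within each group was close to 1 CPM, with means of 98.4 ± 1.24 CPM in LHX2 and 122 ± 1.28 CPM in CTRL libraries (SD, n = 3). Its partner UQCRC1 had 165, 152 and 175 CPM in LHX2 libraries, against 190.4, 188 and 179 CPM in CTRL libraries (-0.18, adjusted p = 0.011), and lost the call without CTRL replicate 1 or 2. CYC1, cytochrome c1, which hands electrons to cytochrome c, had 34.8, 33.0 and 38.1 CPM in LHX2 libraries, against 44.96, 46.03 and 42.6 CPM in CTRL libraries (-0.33 ± 0.06, adjusted p = 0.00049). UQCRFS1, the Rieske iron-sulphur protein, had 59.1, 56.2 and 61.4 CPM in LHX2 libraries, against 73.3, 71.8 and 65.8 CPM in CTRL libraries (-0.26, adjusted p = 0.0014). Both catalytic subunits in the table were thus lower in every LHX2 library than in any CTRL library.

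UQCRH, the hinge protein that contacts cytochrome c1, had 261, 255 and 226 CPM in LHX2 libraries, against 289, 301 and 296 CPM in CTRL libraries (-0.26 ± 0.05, edgeR adjusted p = 0.001). Its copy UQCRHL had 14, 6 and 4 counts in LHX2 libraries, against 13, 21 and 18 counts in CTRL libraries, and did not pass (-0.99 ± 0.44, adjusted p = 0.10). Without LHX2 replicate 1 the log2 fold change was -1.71 (adjusted p = 0.015). The small subunit UQCR10 fell (-0.18, adjusted p = 0.019) but lost the call without CTRL replicate 2 or LHX2 replicate 3 and with the trend removed. UQCRQ, with 90.2, 87.0 and 83.6 CPM in LHX2 libraries and 92.0, 96.5 and 92.4 CPM in CTRL libraries, did not pass (-0.11, edgeR adjusted p = 0.066) and fell without LHX2 replicate 1 (adjusted p = 0.033).

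In complex IV, cytochrome c oxidase, 5 of 12 genes tested fell, with a median log2 fold change of -0.10. At an unadjusted p under 0.05, 6 of the 12 were lower, as were 3031 of all 14533 genes tested. Among all genes tested 15.8% fell, and 32.9% of those above 100 CPM. The summed transcripts were 2336, 2310 and 2161 CPM in LHX2 libraries, against 2451, 2532 and 2463 CPM in CTRL libraries, 8.58% lower in LHX2. The number that fell was 2 without CTRL replicate 2, 3 without CTRL replicate 1 and 2 with the length and GC trend removed. COX7B and COX5B fell under every setting tried.

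COX7B, a small subunit encoded on the X chromosome, had 186, 175 and 168 CPM in LHX2 libraries, against 216, 231 and 232 CPM in CTRL libraries (-0.36 ± 0.04, edgeR adjusted p = 2.5e-05). COX5B, which binds zinc on the matrix side, had 96.3, 93.0 and 94.1 CPM in LHX2 libraries, against 116, 115 and 99.0 CPM in CTRL libraries (-0.22, adjusted p = 0.0059), and its promoter is the one above with the GABPA/ETS motif at 2 places. COX7C fell (-0.18, edgeR adjusted p = 0.022) but lost the call without CTRL replicate 2 and with the trend removed. COX5A fell (-0.22, adjusted p = 0.028) with 77.2, 68.4 and 84.0 CPM in LHX2 libraries and 92.3, 93.9 and 80.4 CPM in CTRL libraries, which overlapped, and lost the call in 7 of the 15 alternatives (adjusted p = 0.056 to 0.13), including without CTRL replicate 1, CTRL replicate 2, LHX2 replicate 1 or LHX2 replicate 2. NDUFA4 received the most counts of the complex, with 623, 623 and 599 CPM in LHX2 libraries and 657, 670.3 and 657 CPM in CTRL libraries (-0.11, adjusted p = 0.041), and lost the call in 8 of the 15 alternatives, including each library left out other than LHX2 replicate 1.

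Several complex IV genes have tissue-restricted partners, and in these cells the common forms carried nearly all counts. COX6A1 had 188, 179 and 182 CPM in LHX2 libraries, against 186, 190 and 190 CPM in CTRL libraries, while its muscle form COX6A2 had 0 counts in all 6 libraries. COX7A2 had 316, 314 and 277 CPM in LHX2 libraries, against 323, 334 and 331 CPM in CTRL libraries (-0.12, edgeR adjusted p = 0.064), and fell without LHX2 replicate 1 or 2 (adjusted p = 0.026 and 0.049) and with no filter on low counts (0.025). The muscle form COX7A1 had 0 counts. COX8C, a testis form, and the readthrough ATP5MF-PTCD1 had 0 counts as well, and a count of 0 allows up to 3 counts, or 0.0757 to 0.0999 CPM depending on the library. COX6B2, another testis form, had 8, 1 and 5 counts in LHX2 libraries and 4, 4 and 6 counts in CTRL libraries, against 238 ± 29.9 CPM in LHX2 and 254 ± 11.9 CPM in CTRL libraries (SD, n = 3) for COX6B1. NDUFA4L2, known as a hypoxia-induced form of NDUFA4, stayed under 1 CPM in every library. COX7B2 had 50, 55 and 34 counts in LHX2 libraries and 37, 59 and 43 counts in CTRL libraries.

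COX8A ran the other way, though it did not pass. It had 102, 101 and 115 CPM in LHX2 libraries, against 102, 102 and 86.3 CPM in CTRL libraries (0.13 ± 0.06, edgeR adjusted p = 0.14), and the groups overlapped. LHX2 replicate 3 was the highest and CTRL replicate 3 the lowest of the 6. With the length and GC trend removed it rose by 0.19 (adjusted p = 0.0043). Subunit transcripts rich in G and C varied more between libraries of a group: the 9 with at least 60% GC had a median coefficient of variation of 11.8% in LHX2 and 12.9% in CTRL libraries, against 6.36% in LHX2 and 3.55% in CTRL libraries for the others. Some of the 9 had few counts, such as NDUFA4L2 with 10 to 24 per library, and NDUFA11 varied by only 3.10% in LHX2 and 3.59% in CTRL libraries. The part of low counts in this spread was not tested. NDUFS7, a core subunit of complex I among these 9, had 10.5, 14.8 and 19.5 CPM in LHX2 libraries, against 18.7, 17.9 and 9.89 CPM in CTRL libraries, again with LHX2 replicate 3 the highest and CTRL replicate 3 the lowest. The part of the length and GC trend in these values was not tested further.

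**Figure D4:**
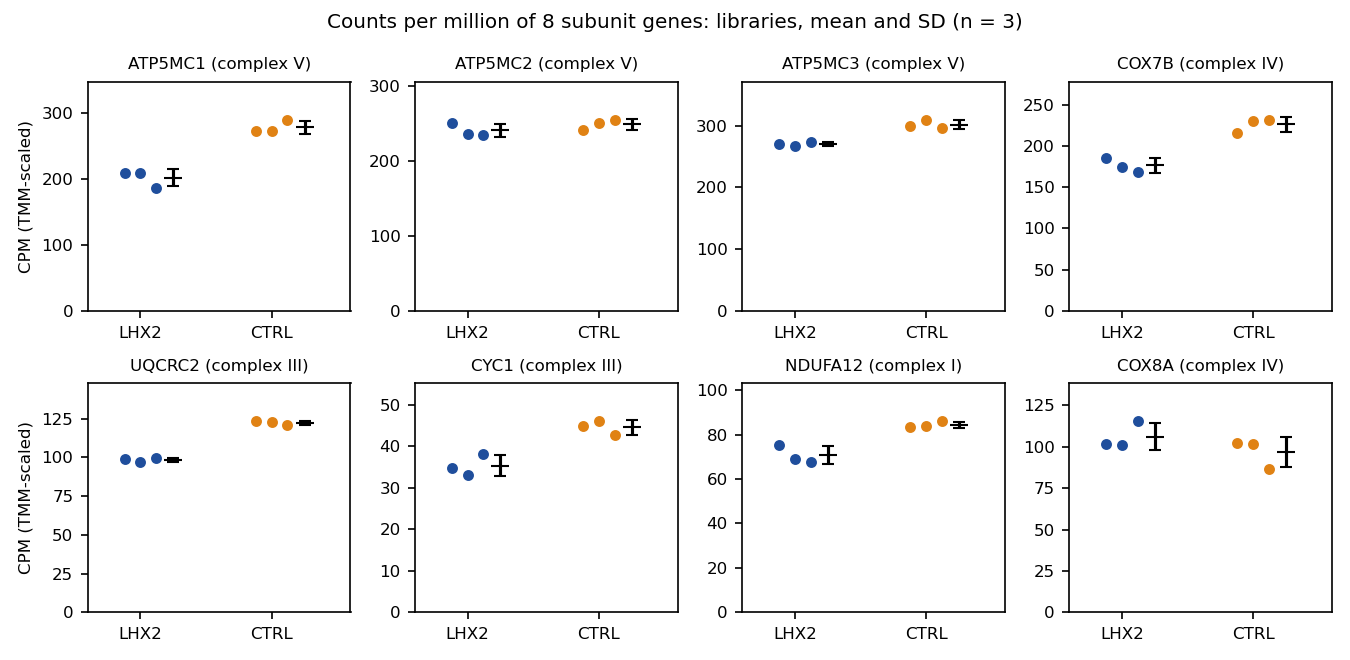
CPM (y axes, from 0) of 8 subunit genes in the 3 LHX2 libraries (blue, left) and the 3 CTRL libraries (orange, right), with the mean and SD in black. ATP5MC1, ATP5MC3, COX7B, UQCRC2, CYC1 and NDUFA12 were lower in every LHX2 library, while ATP5MC2 and COX8A overlapped.

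In complex V, the ATP synthase, 12 of 18 genes tested fell, with a median log2 fold change of -0.18. Among all genes tested 15.8% fell, and 32.9% of those above 100 CPM. The summed transcripts were 3938, 3855 and 3869 CPM in LHX2 libraries, against 4424, 4468 and 4354 CPM in CTRL libraries, 11.96% lower in LHX2. The number that fell was 7 without CTRL replicate 2. Of the F1 subunits, which form the catalytic head, 3 of 5 fell. Of the peripheral stalk 3 of 4 fell, of the c ring 2 of 3, and of the other membrane subunits 4 of 5.

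ATP5F1C, the gamma subunit that turns within the head, had 185, 194 and 186 CPM in LHX2 libraries, against 223, 219 and 228 CPM in CTRL libraries (-0.25 ± 0.04, edgeR adjusted p = 0.00016). ATP5F1B, the catalytic beta subunit, received the most counts of all 86 genes, with 873, 866 and 988 CPM in LHX2 libraries and 1089, 1085 and 970 CPM in CTRL libraries (-0.21, adjusted p = 0.012). It fell although LHX2 replicate 3 lay above CTRL replicate 3, and lost the call in 4 alternatives (edgeR adjusted p = 0.054 to 0.069): the replicate block and without CTRL replicate 1, CTRL replicate 2 or LHX2 replicate 2. ATP5F1A, the alpha subunit, had 520, 493 and 523 CPM in LHX2 libraries, against 576, 573 and 555 CPM in CTRL libraries (-0.15, adjusted p = 0.0083), and lost the call without CTRL replicate 2 (0.052). The delta and epsilon subunits ATP5F1D and ATP5F1E were near 10 CPM and did not pass (-0.27 and -0.11, edgeR adjusted p = 0.18 and 0.38), though ATP5F1D fell without CTRL replicate 3 and with the trend removed.

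Of the stalk and membrane subunits, ATP5PB, subunit b of the stalk, had 191, 186 and 166 CPM in LHX2 libraries, against 215, 213 and 232 CPM in CTRL libraries (-0.29 ± 0.05, edgeR adjusted p = 0.00068). ATP5MD and ATP5MPL, small proteins attached to the membrane part, fell by 0.25 and 0.25 on the log2 scale (adjusted p = 0.001 and 0.0014). ATP5PD, subunit d, had 206, 202 and 196 CPM in LHX2 libraries, against 212, 214 and 217 CPM in CTRL libraries, without overlap, and did not pass (-0.09, edgeR adjusted p = 0.071), though it fell without LHX2 replicate 1 (0.047). ATP5MG, subunit g, had 244, 228 and 217 CPM in LHX2 libraries, against 228, 231 and 236 CPM in CTRL libraries (-0.01, adjusted p = 0.86). Its copy ATP5MGL had 4, 1 and 2 counts in LHX2 libraries and 2, 6 and 6 counts in CTRL libraries and was not tested. The inhibitor ATP5IF1 had 78.4, 87.6 and 109 CPM in LHX2 libraries, against 92.9, 96.8 and 74.0 CPM in CTRL libraries (0.06, adjusted p = 0.69).

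The c ring, which rotates with the proton flow, is built from 3 genes, since ATP5MC1, ATP5MC2 and ATP5MC3 encode the same mature protein with different import sequences. ATP5MC1 lies on chromosome 17 from 48892787 to 48895871, ATP5MC2 on chromosome 12 from 53665170 to 53681423 and ATP5MC3 on chromosome 2 from 175176258 to 175181710 (GRCh38). ATP5MC1 had 209, 209 and 187 CPM in LHX2 libraries, against 272, 272 and 289 CPM in CTRL libraries, a fall of 27.4% (-0.46 ± 0.05, edgeR adjusted p = 4.2e-06) and the largest among the 40 genes that fell. ATP5MC3 had 269.9, 268 and 273 CPM in LHX2 libraries, against 299, 309.6 and 297 CPM in CTRL libraries (-0.16 ± 0.04, adjusted p = 0.0037). ATP5MC2 had 251, 236 and 235 CPM in LHX2 libraries, against 240.4, 250.5 and 255 CPM in CTRL libraries, and did not pass (-0.05 ± 0.04, adjusted p = 0.41). The groups did not overlap for ATP5MC1 and ATP5MC3 and overlapped for ATP5MC2.

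The ratio of ATP5MC1 to ATP5MC2 counts was 0.834, 0.887 and 0.794 in LHX2 libraries, against 1.13, 1.09 and 1.14 in CTRL libraries, a log2 difference of -0.42. It did not depend on the scaling of the libraries, and its groups did not overlap. The ratio of ATP5MC1 to ATP5MC3 was 0.776, 0.781 and 0.683 in LHX2 libraries, against 0.908, 0.880 and 0.974 in CTRL libraries (-0.30). The ratio of ATP5MC3 to ATP5MC2 was 1.08, 1.14 and 1.16 in LHX2 libraries, against 1.24, 1.24 and 1.17 in CTRL libraries (-0.11), with replicate 3 of the groups nearly equal. For each of the 3 ratios the exact two-sided permutation test gave p = 0.10, the smallest that 3 against 3 libraries allow, and 0.10 after adjustment over the 3. Of the counts of all c subunit genes, ATP5MC1 held 28.3% ± 1.28 in LHX2 and 33.5% ± 0.835 in CTRL libraries, ATP5MC2 33.8% ± 0.639 in LHX2 and 30.01% ± 0.340 in CTRL libraries, and ATP5MC3 37.9% ± 1.22 in LHX2 and 36.5% ± 1.01 in CTRL libraries (SD, n = 3).

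Subunits outside the symbol rule gave mixed values. CYCS, cytochrome c, which carries electrons between complexes III and IV, had 655, 646 and 571 CPM in LHX2 libraries, against 761, 742 and 807 CPM in CTRL libraries, and fell (-0.30, edgeR adjusted p = 0.00043). COX4I1, the largest nuclear subunit of complex IV, had 328, 317 and 318 CPM in LHX2 libraries, against 293, 291 and 298 CPM in CTRL libraries, and rose (0.13 ± 0.04, adjusted p = 0.016), with groups that did not overlap. It lost the call with the replicate block (adjusted p = 0.059) and without CTRL replicate 1, CTRL replicate 2 or LHX2 replicate 1 (0.060, 0.092 and 0.060). NDUFAB1, the acyl carrier protein of complex I, did not pass (-0.29, adjusted p = 0.13), nor did COX7A2L, which helps join complexes III and IV (-0.07, adjusted p = 0.29). COX4I2, the lung form of COX4, was not tested. For the 13 mitochondrially encoded subunits 0 rows were found in the deposited table, so they could not be analysed here.

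Of 57 assembly factors, proteins that build the complexes without being part of them, 21 fell (36.8%) and 0 rose, with a median log2 fold change of -0.13. Among all genes tested, 15.8% fell and 16.6% rose. The share that fell was 11.7% between 10 and 30 CPM, 22.2% between 30 and 100 CPM and 32.9% above 100 CPM. By complex, 7 of 18 fell for complex I, 0 of 4 for complex II, 3 of 6 for complex III, 10 of 24 for complex IV and 1 of 5 for complex V. Complexes II and V had too few factors to read their counts against the share of all genes. At an unadjusted p under 0.05, 3 of the 4 for complex II were lower, as were 3031 of all 14533 genes tested. COA7, needed for complex IV assembly, had 92.3, 87.1 and 83.0 CPM in LHX2 libraries, against 120, 114 and 131 CPM in CTRL libraries (-0.48 ± 0.05, edgeR adjusted p = 8.7e-06). BCS1L, which inserts the Rieske protein into complex III, had 35.8, 35.0 and 35.8 CPM in LHX2 libraries, against 46.1, 45.2 and 47.3 CPM in CTRL libraries (-0.38 ± 0.05, adjusted p = 2.4e-05). Both lay wholly below the CTRL libraries.

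Among the other assembly factors, those of complex I that fell most were NDUFAF4, NDUFAF2, ECSIT and NDUFAF1 (-0.39, -0.39, -0.34 and -0.31). For complex IV, COA4, LRPPRC, which stabilises mitochondrial messenger RNA, and SCO1, which delivers copper, fell by 0.40, 0.31 and 0.30 on the log2 scale. For complex III, LYRM7, a chaperone of the Rieske protein, and UQCC3 fell (-0.25 and -0.33), UQCC3 with groups that overlapped and with an adjusted p of 0.046 in the edgeR test that rose above the threshold in 8 of the 15 alternatives. For complex V, TMEM70, which promotes c ring assembly, fell (-0.29, edgeR adjusted p = 0.012), and lost the call without CTRL replicate 2 (-0.23, adjusted p = 0.08) or LHX2 replicate 2 (-0.25, 0.05 after rounding). With the length and GC trend removed, 2 assembly factors rose, while 15.4% of all genes tested rose in that fit.

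Of 13 regulators of mitochondrial gene expression, 5 fell (38.5%) and 0 rose, while 15.8% of all genes tested fell. PPARGC1B, a coactivator of mitochondrial biogenesis, had 6.39, 5.81 and 5.52 CPM in LHX2 libraries, against 8.97, 8.47 and 9.92 CPM in CTRL libraries (-0.63 ± 0.10, edgeR adjusted p = 0.00023). TFB2M and TFB1M, which act in transcription and ribosome maturation within mitochondria, and TFAM, which packages mitochondrial DNA, fell (-0.42, -0.35 and -0.16). Those of the 13 whose motifs were searched in the promoters did not pass. NRF1 had 21.6, 22.6 and 21.1 CPM in LHX2 libraries, against 23.5, 21.1 and 20.9 CPM in CTRL libraries (-0.01, edgeR adjusted p = 0.95). GABPA had a log2 fold change of 0.05 (adjusted p = 0.42), and ESRRA one of -0.21 (adjusted p = 0.10). YY1 had 114, 110.1 and 115 CPM in LHX2 libraries, against 119, 118 and 119 CPM in CTRL libraries, and did not pass (-0.07, edgeR adjusted p = 0.16), though its groups did not overlap. PPARGC1A, the better known coactivator, was under 1 CPM in every library. With the length and GC trend removed, 8 of the 13 fell, while 19.9% of all genes tested fell in that fit.

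The tricarboxylic acid cycle and the pyruvate dehydrogenase complex feed NADH and succinate to the chain. Of their 18 genes, 8 fell (44.4%) and 0 rose, with a median log2 fold change of -0.10, while 15.8% of all genes tested fell. That share was 22.2% for genes between 30 and 100 CPM and 32.9% above 100 CPM. MDH2, mitochondrial malate dehydrogenase, had 176, 172 and 193 CPM in LHX2 libraries, against 254, 247 and 222 CPM in CTRL libraries (-0.42 ± 0.06, edgeR adjusted p = 3.8e-05). IDH3B, SUCLG1 and PDHA1, subunits of isocitrate dehydrogenase, succinate-CoA ligase and pyruvate dehydrogenase, fell by 0.31, 0.30 and 0.29 on the log2 scale. CS, citrate synthase, did not pass (-0.07, adjusted p = 0.18).

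**Figure D5:**
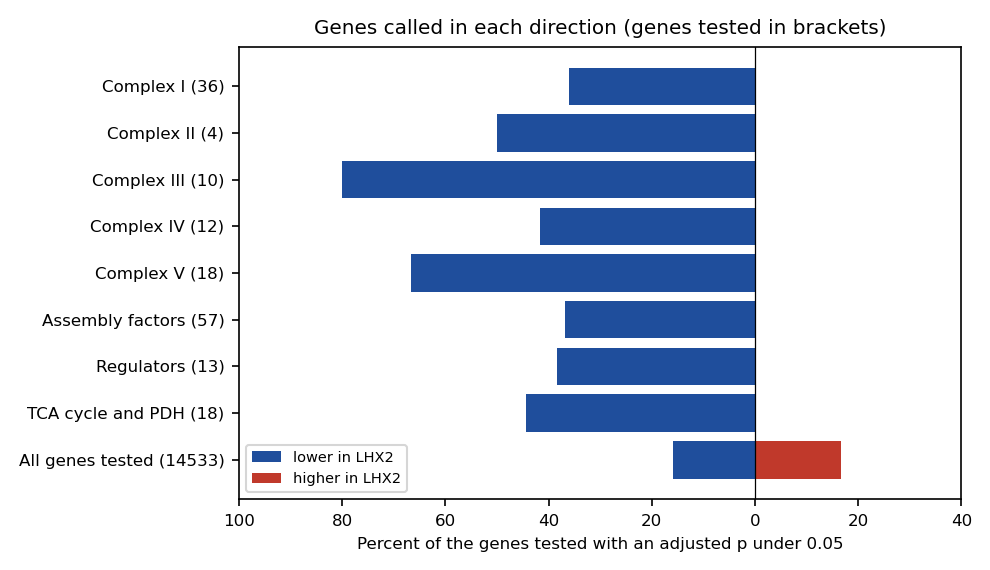
Percent of the genes tested that fell (blue, left of 0) or rose (red, right of 0) in LHX2 cells at an adjusted p under 0.05, for each complex, for assembly factors, regulators and the tricarboxylic acid cycle with pyruvate dehydrogenase, and for all 14533 genes tested; bars start at 0 and the number tested stands in brackets. All gene groups lie on the lower side, from 13 of 36 genes in complex I to 8 of 10 in complex III, while all genes tested had 15.8% lower and 16.6% higher.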

How the data were processed

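Polyadenylated RNA of Huh7 cells was sequenced in 3 LHX2 and 3 CTRL libraries, made with a stranded kit per the labels' protocols. Per the submitters' processing notes, reads were handled on GRCh38/hg38 with TopHat2 2.1.1 and Bowtie2 2.3.5.1 and counted with featureCounts 2.0.0, and SAMtools 1.9, bcl2fastq 2.20 and FastQC are also named. The sources used here give neither annotation nor strand setting. The authors deposited raw read counts per gene, without normalization. A control column named in another form than the rest was taken as CTRL replicate 1 by its number.

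The edgeR filterByExpr filter, at a minimum count of 10, a minimum total of 15 and a minimum proportion of 0.7, kept 14533 genes. Libraries of 30029313 to 39653681 counts were scaled with TMM factors of 0.985 to 1.02, and the quasi-likelihood F-test of edgeR compared the groups, with Benjamini-Hochberg adjustment over all genes tested and a threshold of 0.05. Standard errors came from the F statistic. With 3 libraries a group and no molecular identifiers, limits from a count of 0 cover counting error only. Simulated counts with known changes were used to check the test. As alternatives, the fit was repeated with upper-quartile factors, RLE factors, library totals alone, no filter, at least 1 CPM in each of 3 libraries, a replicate block, DESeq2, limma-voom, removal of a loess trend (span 0.3) with transcript length and GC content, each library left out, structural subunits alone, and another gene length for levels per kilobase. Lengths and GC content came from the longest GENCODE transcript of each gene (release 29), matched for 25878 genes by identifier and 1034 by symbol; 1353 had no match.

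The genes, 12 lists and tests were chosen with earlier results of these data known. Named genes were, per complex, up to 6 that fell with the smallest adjusted p and up to 3 that did not pass with the highest level per kilobase, all genes with too few counts, the paralog sets, and up to 4 called genes of each other list; other names were chosen after their values were seen. A gene that this rule names is not reported here. Subunit genes have many processed pseudogenes and some copies, readthroughs or antisense partners in the table (UQCRHL, ATP5MGL, ATP5MF-PTCD1, NDUFC2-KCTD14, NDUFB2-AS1, NDUFV2-AS1, NDUFA6-DT), so their counts may include or lose reads of these. Fits ran in R 4.3.3 (DESeq2 1.42.0, limma 3.58.1, edgeR 4.0.16), and summaries and plots in Python 3.11.15 (matplotlib 3.10.9, numpy 2.4.6, pandas 2.3.3).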

Additional observations from a re-analysis of the deposited data

How the results depend on the processing

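Of the 40 subunit genes that fell, 22 fell under all 15 alternative fits, 9 of complex I, 1 of II, 4 of III, 2 of IV and 6 of V. The number that fell ranged from 23 to 42 with each library left out, lowest without CTRL replicate 2, and from 33 to 42 under the other settings. It was 33 with library totals alone, the trend removed and the replicate block, fits in which 13.0%, 19.9% and 12.6% of all genes fell. Among structural subunits alone, it was 40 of 78. The number that rose was 0 to 1 with each library left out and 1 with the trend removed (COX8A). The median log2 fold change of the subunits lay between -0.161 and -0.117, the last with library totals alone, which moved the median of all genes to 0.039. Among all genes called, 51.2% were higher in LHX2, against 59.8% with library totals alone and 43.6% with the trend removed; the cause was not tested. Leaving out each library gave 1850 to 2316 genes higher and 1699 to 2251 lower.

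The named genes whose signs turned were genes that did not pass. With each library left out, NDUFB4 ranged from -0.023 to 0.061, COX6B1 from -0.165 to 0.007, ATP5MG from -0.065 to 0.027 and NDUFA4L2 from -0.081 to 0.647. With the trend removed, the signs of 6 subunit genes turned: SDHB was 0.016, COX6A1 0.017, ATP5MG 0.057, NDUFC1 0.056, NDUFS8 0.006 and NDUFA5 -0.003. ATP5MG was 0.015 with library totals alone. Of the 40 calls, 18 were lost in at least 1 setting (SDHA, NDUFV1, NDUFA4, NDUFA11, NDUFB2, NDUFB6, UQCRB, UQCRC1, UQCR10, UQCR11, COX5A, COX7C, ATP5F1A, ATP5F1B, ATP5ME, ATP5MF, ATP5PF and ATP5PO), and 14 genes that did not pass gained a call in at least 1, COX8A and NDUFA13 as higher and the rest as lower; the cause was not tested.

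Libraries that share a number did not deviate together (correlations of -0.056, -0.074 and -0.195), and no LHX2 library correlated best with its own number. With 3 libraries a group, each centred on its group mean, these values cannot show whether the numbers pair the samples. With the replicate block, 1936 genes were higher and 1832 lower in LHX2. Levels per kilobase depended on the gene length used: SDHA had 8.18 CPM per kilobase of merged exons and 28.7 of the longest transcript in CTRL libraries. Genes under about 1 CPM, such as NDUFA4L2 and UQCRHL, are limited by depth.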
